A study of Homo sapiens with 6 samples.

Results

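Nuclear receptors are transcription factors, most of which carry a DNA-binding domain with zinc fingers and a ligand-binding domain that holds a small lipophilic molecule such as a steroid, a retinoid, an oxysterol or a fatty acid. Many of them bind DNA as heterodimers with a retinoid X receptor (RXR), others act as homodimers or monomers, and several are orphans with no settled ligand. In the absence of ligand, RXR heterodimers of the retinoic acid and thyroid hormone receptors recruit corepressors, and ligand exchanges these for coactivators. The family examined here holds 45 named genes, chosen by symbol from receptor nomenclature. This family and the gene lists used below were chosen with earlier results of these data known. Of these, 43 were among the 34811 genes of the count table and 30 passed the filter on low counts, while the progesterone receptor gene PGR and RXRG were not in the table used here.

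The cells belonged to OVCAR-3, a widely used line from a human ovarian carcinoma. Controls (OV3/SCR) stably expressed a scrambled shRNA and OV3/COX1KD cells an shRNA against COX-1, the enzyme that turns arachidonic acid into the prostaglandin precursor PGH2, both on the same plasmid backbone and both under puromycin selection. Each condition was 1 clone (OV3/SCR clone #1 and OV3/COX1KD clone #2), harvested in log phase at 3 independent passages, so the knockdown and the clone cannot be told apart, and a p-value measures the spread between passages of a clone. The comparison asks how mRNA levels differ when COX-1 is depleted. Besides lower COX-1 mRNA, the study reports a marked loss of COX-1 protein by Western blot and less conversion of arachidonic acid to prostaglandins.

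Library totals lay between 25291505 and 27391538 counts, and 3 counts corresponded to 0.113 to 0.120 CPM (library-scaled counts, with TMM factors), a floor that covers counting error only. PTGS1, the gene of COX-1, had 641 to 713 counts per control library and 456 to 501 per knockdown library, a remaining level of 73.3% (log2 fold change -0.45, SE 0.057, edgeR FDR = 1.34e-06). All 9 markers of ovarian carcinoma epithelium were detected and all 9 were called, 8 higher and PAX8 lower in OV3/COX1KD. Their summed level was 4732 to 4786 CPM in OV3/SCR and 6568 to 6750 CPM in OV3/COX1KD. At the same edgeR FDR under 0.01, 47.9% of all tested genes were called, and 57.7% of those whose mean log2 CPM reached 1 (32.3% higher and 25.4% lower). The summed levels of fibroblast (11.3 to 11.9 and 6.87 to 7.50 CPM), leukocyte (at most 2.03 and 1.76 CPM) and endothelial markers (2.92 to 4.05 and 3.91 to 4.73 CPM) were low in both conditions. Their part in the receptor results was not tested. In bulk RNA, fewer cells that express a gene and less of its RNA per cell cannot be told apart.

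OV3/COX1KD cells differed from OV3/SCR cells in 12 of the 30 tested receptor genes at an edgeR FDR under 0.01, 6 higher and 6 lower. THRB, RXRA and NR2F2 had the largest rises and NR4A1, NR1D1 and VDR the largest falls among them, the largest rise being 1.69-fold. The share called was 40.0% of the tested receptors, against 47.9% of all 17309 tested genes, and the receptors called higher and lower were each 20.0%, against 25.8% and 22.1%. The share of receptors that differed was thus no larger than that of genes at large. No receptor passed the study's threshold of a fold change above 2.5, which 3.92% of all genes passed, and 6 receptors combined the FDR with a log2 fold change beyond 0.5, against 19.9% of all genes. Normalized levels of the 2 conditions did not overlap for 21 of the 30 receptors and for 63.2% of all genes.

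The median log2 fold change was -0.01 over the tested receptors and -0.0087 over all tested genes. Among genes whose mean log2 CPM reached 1, 12 of 26 receptors (46.2%) and 57.7% of all genes were called. Scaling by total counts alone gave 3 receptors higher and 11 lower in place of 6 and 6, and it moved the median of all genes by -0.078. The number called higher was also 3 with DESeq2, without OV3/SCR replicate 1 and without OV3/COX1KD replicate 1. RXRA, THRB and NR2F2 were higher, and NR1D1, VDR, NR2C2, NR4A1 and NR6A1 lower, at the FDR threshold under all 12 alternatives tried, whereas NR3C1, RARG, PPARA and NR2F6 lost their calls in some.

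**Figure D1:**
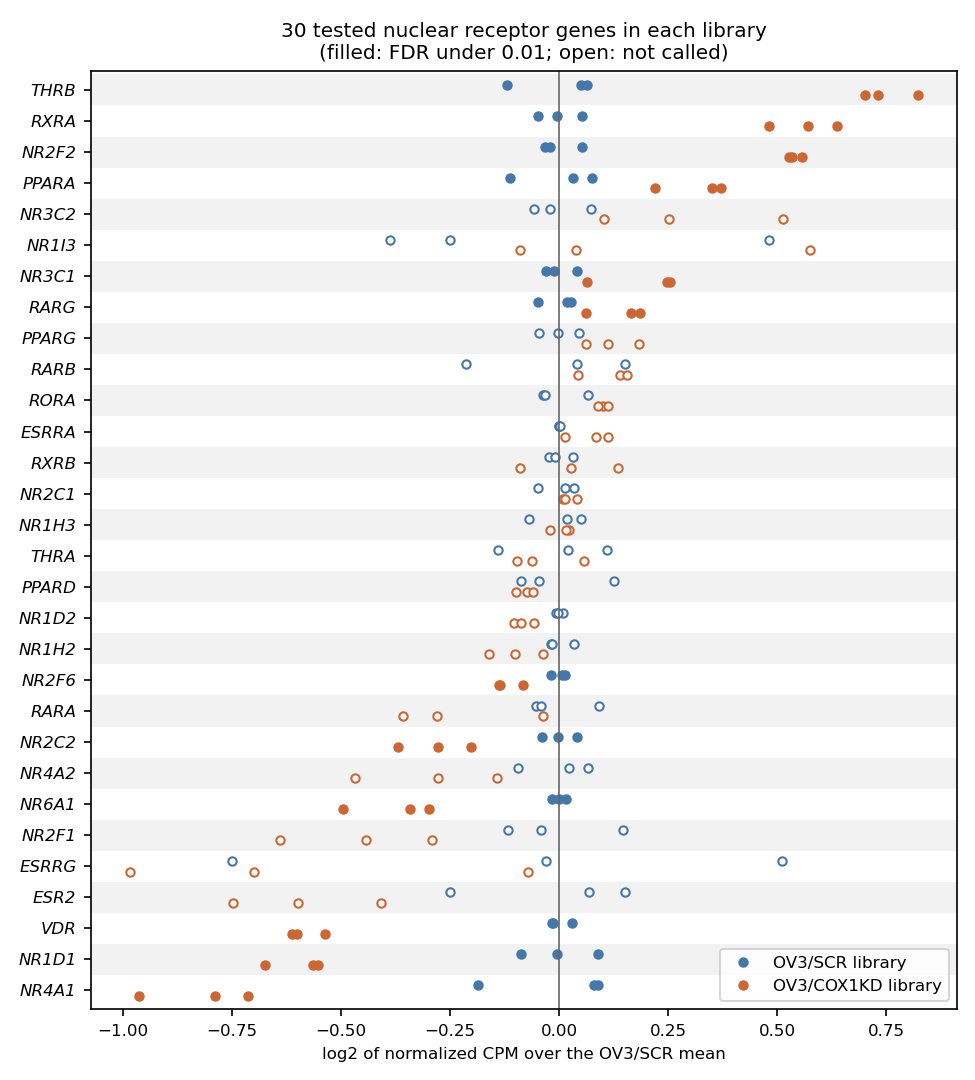
Level of each of the 30 tested receptor genes in each library, as the log2 of normalized CPM over the OV3/SCR mean of that gene; blue points are the 3 OV3/SCR libraries, orange points the 3 OV3/COX1KD libraries, and filled points mark genes with an edgeR FDR under 0.01. The conditions lie apart for THRB, RXRA and NR2F2 at the top and for NR4A1, NR1D1 and VDR at the bottom, while RXRB, NR2C1, NR1H3 and THRA overlap.

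The receptors that these cells expressed most, per length, were an orphan and a clock repressor. NR2F6, an orphan of the COUP-TF group that mostly represses transcription, stood at 92.0 ± 1.01 CPM per kb of exon (SD, n = 3) in OV3/SCR cells and took 36.7% of the summed level of all receptors with an exon length. NR1D2 (REV-ERBβ, a heme-binding repressor of clock genes) followed at 33.1 ± 0.184 CPM per kb. The retinoic acid receptor RARG (19.4 ± 0.555 CPM per kb) and the estrogen-related receptor ESRRA (19.1 ± 0.0173 CPM per kb), a regulator of mitochondrial genes, came next and did not differ beyond their spread.

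VDR (13.2 ± 0.243 CPM per kb), RXRB (11.1 ± 0.223), NR1H2 (10.5 ± 0.216), NR2F2 (7.17 ± 0.236) and RXRA (5.17 ± 0.181) were the next in OV3/SCR cells. NR1D1 (4.63 ± 0.284 CPM per kb) and NR3C1 (4.47 ± 0.117) followed and did not differ beyond their spread. Below them, PPARD (3.85 ± 0.306 CPM per kb), NR2C1 (3.70 ± 0.108) and NR1H3 (3.69 ± 0.156) could not be put in an order. In OV3/COX1KD cells VDR stood at 8.78 ± 0.247 CPM per kb, under NR2F2 at 10.4 ± 0.114. The scale uses merged exon lengths, so a gene transcribed mainly from a short isoform is placed too low.

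**Figure D2:**
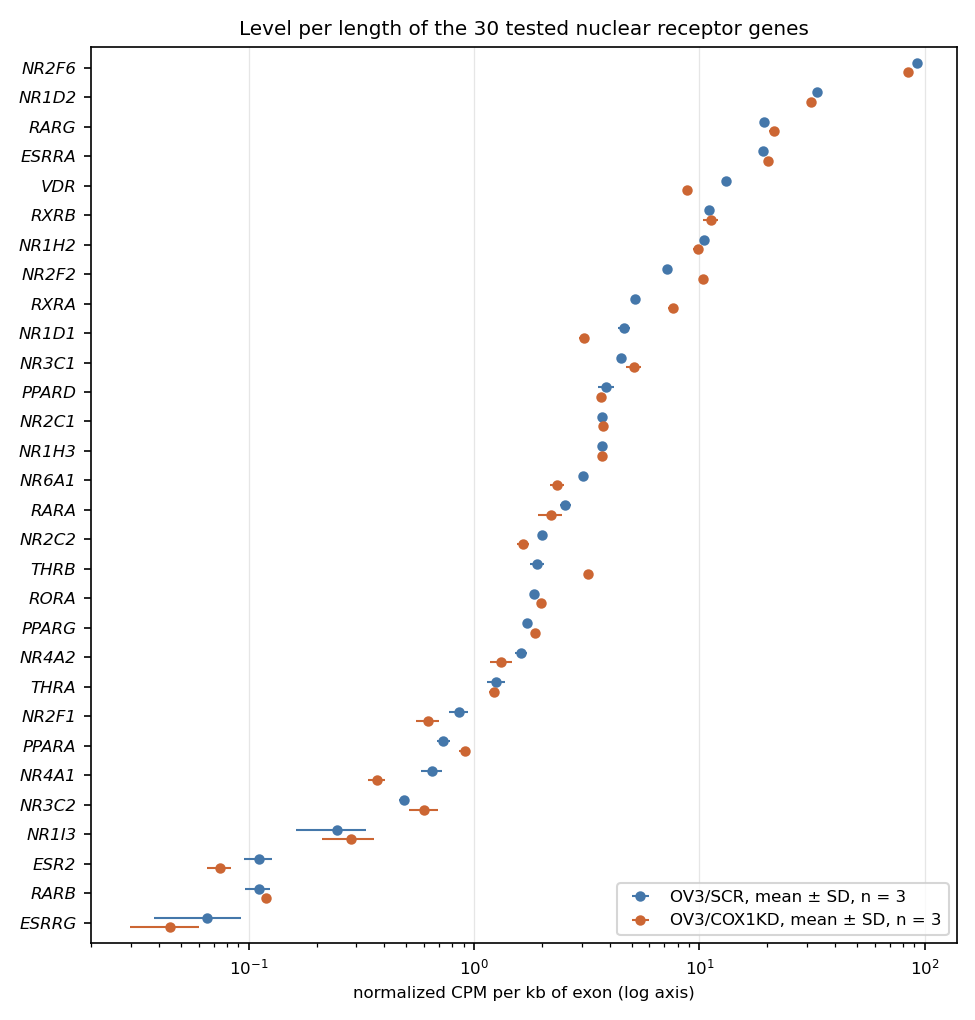
Normalized CPM per kb of exon on a log axis for the 30 tested receptor genes, ordered by their level in OV3/SCR cells; points are means and bars the SD over 3 libraries, blue for OV3/SCR and orange for OV3/COX1KD. NR2F6 stands highest in both conditions and ESRRG lowest, and the pairs of points are farthest apart for NR4A1 (log2 fold change -0.82) and THRB (0.75).

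Of the estrogen receptor genes, ESR1 was at the floor and ESR2 was scarce. ESR1, which encodes the estrogen receptor α, had 0, 2 and 1 counts in OV3/SCR and 1, 0 and 1 in OV3/COX1KD. No library exceeded 3 counts, and a fold change is not given. ESR2 (estrogen receptor β) had 37, 29 and 38 counts in OV3/SCR and 22, 25 and 21 in OV3/COX1KD, levels that did not overlap but did not pass the threshold (log2 fold change -0.58, SE 0.23, edgeR FDR = 0.0388). A lncRNA, ENSG00000214770, that covers 4.38% of the exon bases of ESR2 was lower as well (log2 fold change -0.68, edgeR FDR = 0.00648).

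Among the corticosteroid receptors, NR3C1 encodes the glucocorticoid receptor and rose slightly. Its level was 40.6, 40.1 and 42.2 CPM in OV3/SCR replicates 1, 2 and 3 and 48.9, 42.8 and 48.6 CPM in OV3/COX1KD replicates 1, 2 and 3, with the highest control just under the lowest knockdown library. The log2 fold change was 0.19 (SE 0.051, edgeR FDR = 0.00317). The call was lost in 6 of the 12 alternatives, among them total count scaling (FDR = 0.0568) and DESeq2 (FDR = 0.0108). NR3C2, the mineralocorticoid receptor gene, had 85, 81 and 88 counts in OV3/SCR and 97, 87 and 123 in OV3/COX1KD and did not pass the test (log2 fold change 0.30, SE 0.14, edgeR FDR = 0.0660).

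Of the estrogen-related receptors, orphans that bind sites like those of the estrogen receptor, ESRRA differed little. Its log2 fold change was 0.07, with a 95% interval from -0.01 to 0.15. ESRRG had 9 to 27 counts per library, and its estimate of -0.52 had an interval from -1.27 to 0.22. ESRRB did not pass the filter.

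RXRA and RXRB encode the common partners of the non-steroid receptors, and RXRA rose while RXRB was not called. RXRA (ENSG00000186350, chromosome 9 of GRCh37 from 137208944 to 137332431) had 62.2, 64.7 and 60.4 CPM in the OV3/SCR libraries and 97.1, 87.2 and 92.7 CPM in the OV3/COX1KD libraries. The lowest knockdown library lay far above the highest control. This was a rise of 1.48-fold (log2 fold change 0.57, SE 0.043, edgeR FDR = 8.03e-10), with estimates from 0.49 to 0.61 over the alternatives. RXRB had 42.4, 44.1 and 42.8 CPM in OV3/SCR and 43.9, 47.3 and 40.5 CPM in OV3/COX1KD, a log2 fold change of 0.03 with an interval from -0.08 to 0.13. Per length, RXRA made up 31.9 ± 0.496% of the RXR total in OV3/SCR and 40.5 ± 2.79% in OV3/COX1KD (SD, n = 3). RXRB stayed above RXRA on that scale, although RXRA had more CPM than RXRB in every library. The order per length rests on the merged exon lengths, 12077 bases for RXRA and 3897 for RXRB.

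The thyroid hormone receptors, which act as RXR heterodimers, also parted by isotype. THRB (ENSG00000151090, chromosome 3 from 24158644 to 24537247) had 513, 565 and 565 counts in OV3/SCR and 874, 853 and 986 in OV3/COX1KD, or 20.9 ± 1.46 and 35.3 ± 1.55 CPM (SD, n = 3). It had the largest rise of the family, 1.69-fold (log2 fold change 0.75, SE 0.058, edgeR FDR = 1.09e-09), and its estimate lay between 0.68 and 0.79 in every alternative. THRA had 8.36 to 9.94 CPM in OV3/SCR and 8.62 to 9.58 CPM in OV3/COX1KD, overlapping ranges with a log2 fold change of -0.03 and an interval from -0.22 to 0.15. THRB rose from 60.3 ± 2.96% to 72.4 ± 1.47% of the thyroid hormone receptor total.

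RARG carried most of the retinoic acid receptor mRNA in both conditions, 88.0 ± 0.425% of the group total in OV3/SCR and 90.3 ± 0.713% in OV3/COX1KD. Its level was 96.2, 101 and 101 CPM in OV3/SCR and 113, 112 and 104 CPM in OV3/COX1KD. The difference was small (log2 fold change 0.14, SE 0.038, edgeR FDR = 0.00413). The call was lost in 5 of the 12 alternatives, among them total count scaling (FDR = 0.169) and DESeq2 (FDR = 0.0139). RARA had 11.6, 12.9 and 11.7 CPM in OV3/SCR and 11.8, 9.94 and 9.42 CPM in OV3/COX1KD, overlapping levels that did not pass the test (log2 fold change -0.22, edgeR FDR = 0.0363), while the FDR was 0.00512 without OV3/COX1KD replicate 1. RARB, itself a textbook target of retinoic acid, had 24, 28 and 30 counts in OV3/SCR and 29, 27 and 31 in OV3/COX1KD, with an interval of the log2 fold change from -0.36 to 0.59.

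Promoter windows of RARB and of the catabolic gene CYP26A1 that match the repeat bound by retinoic acid receptors with RXR are shown because they were the only matches among the receptors and the list genes with a promoter entry. Each line is a window of 30 bases before a RefSeq transcription start (GRCh38.p14 table, placed in GRCh37 by exact match) with a direct repeat of receptor binding sites spaced by 5 bases (DR5) in capitals.
RARB, chr3:25469695-25469724, plus strand, repeat starting at position -53: gggtagGGTTCACCGAAAGTTCActcgcat
CYP26A1, chr10:94833554-94833583, plus strand, repeat on the opposite strand starting at position -90: taaagaTGAACTTTGGGTGAACTaattgtc
Each copy of the repeat could be AGGTCA or its variant AGTTCA, or again GGGTCA or its variant GGTTCA, on either strand in the 250 bases before the start. Such a repeat was found in 26 of 35116 promoters (0.074%). Counted per gene, with a match in any entry, it was in 7 of the 11839 tested genes and in 1 of the 40 receptor genes with an entry. Both windows lie in exons annotated as UTR of a longer transcript of their gene. CYP26A1, which degrades retinoic acid, had 10, 4 and 11 counts in OV3/SCR and 0, 1 and 0 in OV3/COX1KD, that is 25 counts against 1, a ratio of OV3/SCR to OV3/COX1KD of 24.5 with an exact 95% interval from 4.0 to 1000 that covers counting error only. Its counts were too low for the filter, and its edgeR FDR with no filter was 3.59e-05. CYP26A1 was named here after its values were seen. A match is a description of the letters, and none of these windows was measured for binding.

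The PPARs, fatty acid receptors that pair with RXR, showed 1 call. PPARA had 8.93, 9.86 and 10.2 CPM in OV3/SCR and 12.5, 11.3 and 12.3 CPM in OV3/COX1KD, without overlap. Its rise was 1.25-fold (log2 fold change 0.32, SE 0.080, edgeR FDR = 0.00220). It missed the threshold in 4 of the 12 alternatives, among them total count scaling (FDR = 0.0142) and DESeq2 (FDR = 0.0103). PPARD, the most abundant of the PPARs per length, had an interval from -0.22 to 0.06 and PPARG, the adipogenic receptor, one from -0.00097 to 0.24. PPARA took 11.6 ± 0.766% of the PPAR total in OV3/SCR and 14.1 ± 0.551% in OV3/COX1KD.

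VDR, the vitamin D receptor gene (ENSG00000111424, chromosome 12 from 48235320 to 48336831), fell to 66.7% of the control and had the smallest FDR of the family. The OV3/SCR libraries had 76.3, 74.0 and 73.8 CPM and the OV3/COX1KD libraries 49.2, 48.9 and 51.4 CPM. The 2 sets of 3 values were far apart (log2 fold change -0.58, SE 0.039, edgeR FDR = 1.24e-10), with estimates from -0.66 to -0.56 over the alternatives. Its heterodimer partner RXRA moved the other way.

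No sterol, bile acid or xenobiotic receptor was called. NR1H2 (LXRβ) and NR1H3 (LXRα), which sense oxysterols, had log2 fold changes of -0.10 (95% interval -0.19 to -0.01, edgeR FDR = 0.0503) and 0.005 (interval -0.12 to 0.13). The levels of NR1H2 did not overlap between the conditions (55.5 to 57.6 and 50.3 to 54.8 CPM), and its FDR was 0.00107, lower in OV3/COX1KD, with total count scaling. NAPSA shares 22.1% of the exon bases of NR1H2. NR1I3, a xenobiotic receptor, had 16 to 30 counts per library with an interval from -0.40 to 0.81, and the bile acid receptor NR1H4 and the xenobiotic receptor NR1I2 had at most 1 count in any library.

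REV-ERBα, encoded by NR1D1, is a repressor in the circadian clock and competes with RORs for the same DNA elements. NR1D1 (ENSG00000126368, chromosome 17 from 38249046 to 38256842) had 12.9, 12.1 and 11.5 CPM in OV3/SCR and 8.23, 7.62 and 8.30 CPM in OV3/COX1KD. It fell to 66.1% of the control (log2 fold change -0.60, SE 0.082, edgeR FDR = 3.46e-06). The gene shares 473 exon bases with THRA on the opposite strand, 18.0% of NR1D1 and 6.45% of THRA, and whether counting used strand is not given in the sources used here. THRA itself was not called, as described above.

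NR1D2, the more abundant REV-ERB, had 193, 191 and 191 CPM in OV3/SCR and 178, 180 and 184 CPM in OV3/COX1KD, groups that did not overlap and differed by a log2 fold change of -0.08 (SE 0.030, edgeR FDR = 0.0218). The FDR of NR1D2 was 1.11e-04 with total count scaling and 0.00642 with at least 10 counts in every library. RORA, an activator at the same elements, had a log2 fold change of 0.10 (interval -0.00021 to 0.20, edgeR FDR = 0.0806). NR1D1 made up 12.3 ± 0.616% of the REV-ERB total per length in OV3/SCR and 8.92 ± 0.363% in OV3/COX1KD.

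The promoter of NR1D2 holds a pair of E-boxes, the letters CACGTG to which the clock activators CLOCK and BMAL1 bind. They are shown because the clock genes are described further on. E-boxes were also matched in list genes that are not shown, among them PER1, BHLHE40, BHLHE41 and TEF. The E-box is in capitals.
NR1D2, chr3:23987445-23987474, plus strand, E-box starting at position -155: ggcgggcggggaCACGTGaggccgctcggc
NR1D2, chr3:23987495-23987524, plus strand, E-box starting at position -105: gggccgcagggaCACGTGggggcgggggcg
The windows lie in introns of NR1D2 and of the neighbouring gene NKIRAS1 in the annotation. An E-box (a palindrome, so both strands at once) was found in 6.34% of all promoters. A gene was counted if any of its promoter entries matched, as in 1276 of the 11839 tested genes with an entry. Of the 40 receptors with an entry, 5 were counted, NR1D2, NR2C1, ESR2, NR5A1 and NR2F2. In NR2F2 the matched windows are coding sequence of a longer transcript. Of these 5, NR5A1 was not tested and NR2F2 alone was called. Of the 1276 tested genes with an E-box, 31.8% were called higher and 22.3% lower. The shares over all 17309 tested genes, 25.8% and 22.1%, include genes without a promoter entry and are not a matched background.

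In the COUP-TF group, orphan receptors with roles in mesenchymal and vascular development and in repression, NR2F2 rose and NR2F6 fell slightly. NR2F2 (COUP-TFII, ENSG00000185551, chromosome 15 from 96869167 to 96883492) had 45.4, 45.7 and 48.2 CPM in OV3/SCR and 66.9, 68.3 and 67.2 CPM in OV3/COX1KD. Both sets were tight and well apart, a rise of 1.45-fold (log2 fold change 0.54, SE 0.040, edgeR FDR = 5.74e-10). NR2F6 had 246, 241 and 245 CPM in OV3/SCR and 231, 222 and 222 CPM in OV3/COX1KD (log2 fold change -0.12, SE 0.030, edgeR FDR = 0.00178), with FDR values up to 0.0184 over the alternatives. NR2F1, the scarce COUP-TFI, had 92, 108 and 94 counts in OV3/SCR and 77, 69 and 64 in OV3/COX1KD and lay just outside the threshold (log2 fold change -0.45, SE 0.14, edgeR FDR = 0.0107), passing it in 4 of the 12 alternatives. NR2F2 took 7.17 ± 0.214% of the COUP-TF total in OV3/SCR and 10.9 ± 0.294% in OV3/COX1KD.

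NR4A1 (NUR77) and its relatives are orphan receptors induced within minutes by growth factors, cAMP and stress. NR4A1 (ENSG00000123358, chromosome 12 from 52416616 to 52453291) had 135, 109 and 130 counts in OV3/SCR and 73, 69 and 65 in OV3/COX1KD, or 4.18 to 5.07 and 2.44 to 2.90 CPM. It had the largest fall of the family, to 56.6% of the control (log2 fold change -0.82, SE 0.14, edgeR FDR = 3.26e-05). NR4A2 (NURR1) had 166, 176 and 180 counts in OV3/SCR and 138, 151 and 128 in OV3/COX1KD, levels that did not overlap but did not pass (log2 fold change -0.29, edgeR FDR = 0.0255), and its FDR was 0.00489 without OV3/COX1KD replicate 2. NR4A3 had 7, 9 and 6 counts in OV3/SCR and 4, 2 and 5 in OV3/COX1KD, too few to pass the filter. The share of NR4A1 in the NR4A total per length was 28.2 ± 2.81% in OV3/SCR and 21.6 ± 1.16% in OV3/COX1KD.

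The remaining orphans include NR6A1, the germ cell nuclear factor, a repressor of pluripotency genes. NR6A1 (ENSG00000148200, chromosome 9 from 127279554 to 127533590) had 21.4, 21.9 and 21.7 CPM in OV3/SCR and 15.3, 17.1 and 17.6 CPM in OV3/COX1KD, a fall to 77.1% (log2 fold change -0.38, SE 0.063, edgeR FDR = 3.51e-05). NR2C2, the testicular receptor TR4, had 23.1, 24.4 and 23.7 CPM in OV3/SCR and 18.4, 19.6 and 20.6 CPM in OV3/COX1KD (log2 fold change -0.28, SE 0.059, edgeR FDR = 4.07e-04). MRPS25, which shares 60.5% of the exon bases of NR2C2, had a log2 fold change of -0.09 (edgeR FDR = 0.0404), so the reads counted for NR2C2 depend on how reads over both genes were assigned. Its paralog NR2C1 did not change detectably (interval -0.09 to 0.13).

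**Figure D3:**
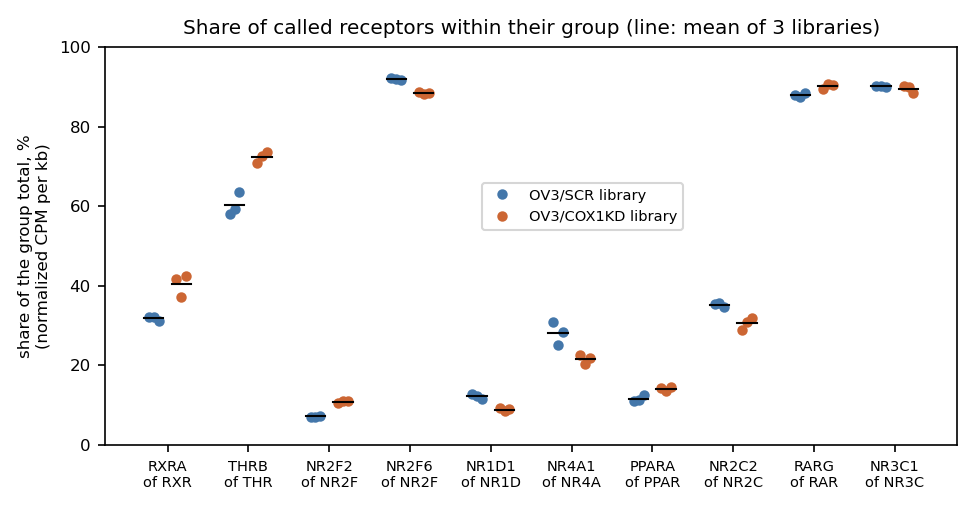
Share of the 10 called receptors placed in an isotype group (all called receptors but VDR and NR6A1) in the total level of their group in each library, in percent of normalized CPM per kb; blue points are OV3/SCR libraries, orange points OV3/COX1KD libraries and black lines the means of 3 libraries. RXRA rises from 31.9% to 40.5% of RXR and THRB from 60.3% to 72.4% of THR, while NR4A1 drops from 28.2% to 21.6% of NR4A. The conditions overlap for NR3C1 (89.9% to 90.3% and 88.4% to 90.1% of NR3C) and for none of the other 9. These 10 were drawn because they had been called, so the separation of their shares adds no support to the calls.

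The promoter of NR6A1 and those of 2 genes from the lists described next, DIO2 and DUSP1, hold the full cAMP response element TGACGTCA, a palindrome bound by CREB, and all 3 genes were lower in OV3/COX1KD. They are shown because no other receptor or list gene with a matched promoter held the element, apart from NR2E1. The element is in capitals, and all 3 windows are on the minus strand.
NR6A1, chr9:127533596-127533625, element starting at position -24: gcagcggcgtgTGACGTCAggggagggagc
DIO2, chr14:80678599-80678628, element starting at position -96: ctctttctcaaTGACGTCAagatctttacc
DUSP1, chr5:172198305-172198334, element starting at position -125: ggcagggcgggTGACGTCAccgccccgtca
The element was found in 578 of 35116 promoters (1.65%). Counted per gene, with a match in any entry, it was in 394 of the 11839 tested genes with an entry. It was in 2 of the 40 receptors with an entry, the other being NR2E1, with at most 1 count per library. Of the 394 tested genes with it, 28.4% were called lower and 24.6% higher, with a median log2 fold change of -0.0012. The shares over all 17309 tested genes, 22.1% and 25.8%, include genes without a promoter entry and are not a matched background. None of these windows was measured for binding, and a part of the element in the 3 falls was not tested.

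Of the 43 receptors in the table, 13 did not pass the filter, namely ESR1, ESRRB, RORB, NR1H4, NR1I2, HNF4A, HNF4G, NR2E1, NR2E3, NR4A3, NR5A1, NR5A2 and NR0B2. Their highest count in any library was 21, for RORB in OV3/SCR replicate 1, and 6 of them reached more than 3 counts in at least 1 library. When the filter was dropped, none had an edgeR FDR under 0.01, the lowest being 0.106 for ESRRB, whose unadjusted p was 0.0355 and the single one under 0.05. Differences in these receptors were not detectable at this depth. HNF4A, NR5A1 and NR0B2 mark liver, steroidogenic and bile acid responsive cells in textbooks.

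Since each condition was 1 clone, the chromosome around the called receptors was examined. Over tested genes within 2 Mb (mean log2 CPM at or above 1), the median log2 fold change was -0.03 around VDR (47 genes), 0.05 around NR1D1 (46), 0.02 around NR4A1 (56), 0.04 around RXRA (41), 0.13 around THRB (9) and 0.16 around NR6A1 (27). It was 0.003 around NR3C1 (12), 0.03 around RARG (49), -0.05 around PPARA (22), 0.07 around NR2C2 (25) and -0.06 around NR2F6 (77), and NR2F2 had 1 such neighbour, at -1.82. Of these neighbours, 14 were called higher and 4 lower around NR6A1, 15 and 9 around RXRA, 15 and 12 around NR1D1, 19 and 19 around NR4A1, 14 and 14 around VDR, and 3 and 1 around THRB. They were 5 and 4 around NR3C1, 17 and 13 around RARG, 7 and 4 around PPARA, 8 and 3 around NR2C2, and 16 and 18 around NR2F6. The neighbour of NR2F2 was called lower. Of all tested genes whose mean log2 CPM reached 1, 32.3% were called higher and 25.4% lower, with a median log2 fold change of 0.029.

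Genes of the proteins that receptors recruit moved in both directions. Of 22 coactivator genes, 7 rose and 5 fell, and of 14 corepressor genes, 6 rose and 5 fell (6 and 7, and 4 and 6, with total count scaling). The shares called were 54.5% and 78.6%, against 47.9% of all tested genes and 57.7% of those whose mean log2 CPM reached 1, and the median log2 fold changes were 0.07 and 0.009, against -0.0087 over all tested genes. PPARGC1A (PGC-1α), the coactivator of PPARs and ESRRA in mitochondrial biogenesis, had 435, 409 and 416 counts in OV3/SCR and 154, 149 and 141 in OV3/COX1KD (log2 fold change -1.47, SE 0.081, edgeR FDR = 7.03e-12), while NCOA1 and NCOA2 of the p160 family rose by 0.59 and 0.51 on the log2 scale. Among corepressors, HR (hairless), which binds VDR, fell from 28.7 ± 1.24 to 12.5 ± 0.204 CPM (log2 fold change -1.21, edgeR FDR = 1.52e-12). GPS2, a subunit of the NCOR complex, had a log2 fold change of -1.09, with another protein-coding gene sharing 44.7% of its exon bases, and TBL1X, another subunit, rose by 0.49.

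Some genes of ligand supply and breakdown had larger fold changes than any tested receptor. Of 15 tested retinoid genes, 3 rose (20.0%, against 25.8% of all tested genes) and 5 fell (33.3%, against 22.1%), with a median log2 fold change of -0.23. The number that fell was 3 without OV3/SCR replicate 1, without OV3/COX1KD replicate 1 and with at least 10 counts in every library. CRABP2, which hands retinoic acid to its receptors, rose from 203 ± 6.23 to 428 ± 4.96 CPM (log2 fold change 1.08, SE 0.030, edgeR FDR = 3.50e-16), and CRABP1 rose by 0.81. DHRS3, which reduces retinal and responds to retinoic acid, fell (-0.49). CYP26B1, a retinoic acid hydroxylase, had 41, 48 and 53 counts in OV3/SCR and 9, 7 and 7 in OV3/COX1KD (log2 fold change -2.58, edgeR FDR = 1.36e-07), and the retinaldehyde dehydrogenase ALDH1A2 went from 18 to 24 counts down to 5 to 7 (-1.69). These last 2 genes were named after their values were seen. Each had fewer than 10 counts in every OV3/COX1KD library, so both passed the filter through the OV3/SCR libraries alone.

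For steroids and oxysterols, 5 of 16 tested genes rose (31.2%) and 1 fell (6.25%), with a median log2 fold change of 0.14. The share called in either direction, 37.5%, was below the 47.9% of all tested genes. HSD11B2, which inactivates cortisol, had a log2 fold change of -1.29 (edgeR FDR = 3.84e-10), and the steroid reductase family member SRD5A3 and the dehydrogenase HSD17B8 had 0.87 and 0.64. For vitamin D and thyroid hormone, 1 of 7 rose (14.3%) and 3 fell (42.9%), with a median of -0.27, or 1 fell with DESeq2 and without OV3/COX1KD replicate 1. LRP2 (megalin), an endocytic receptor that takes up the vitamin D carrier, went from 403 to 438 counts to 2084 to 2551 (log2 fold change 2.52, SE 0.057, edgeR FDR = 1.47e-17). DIO2, which activates thyroid hormone, fell by 0.95 and CYP27B1, which activates vitamin D, by 0.49 on the log2 scale. CYP24A1, the vitamin D hydroxylase induced by VDR, had 7, 8 and 6 counts in OV3/SCR and 0, 1 and 0 in OV3/COX1KD. This was 21 counts against 1, a ratio of 20.5 with an exact 95% counting interval from 3.3 to 850, and the edgeR FDR was 3.18e-04 when the filter was dropped. CYP24A1 was named after its values were seen.

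Lists of textbook target genes moved in both directions, apart from those of the glucocorticoid receptor and of the LXRs and FXR. Of 12 tested glucocorticoid receptor targets, none rose and 4 fell by edgeR and by DESeq2 (1 and 5 at an unadjusted p under 0.05), among them MT2A (metallothionein, -1.60), DUSP1 (a MAPK phosphatase, -1.47) and SGK1 (a kinase, -0.52), while NR3C1 itself was slightly higher. Of 8 tested LXR and FXR targets, 5 rose and none fell by edgeR and by DESeq2 (7 and 0 at an unadjusted p under 0.05), with a median log2 fold change of 0.66, and these included the lipogenic factor SREBF1 (0.87), the LDL receptor ligase MYLIP (0.74) and the cholesterol exporter ABCA1 (0.68). The receptors NR1H2 and NR1H3 were not called. The median of the glucocorticoid receptor targets was -0.16, with 33.3% called lower, and 62.5% of the LXR and FXR targets were called higher. Over all tested genes the median was -0.0087, with 25.8% higher and 22.1% lower. The genes of these lists answer to many other factors.

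Estrogen receptor targets gave 6 higher and 4 lower of 14 (71.4% called, against 47.9% of all tested genes, median log2 fold change 0.15), with CA12 (a carbonic anhydrase) at -1.65, XBP1 at 0.72 and GREB1 at 0.59, in cells where ESR1 was at the floor. Retinoic acid receptor targets gave 2 higher and 3 lower of 12 (41.7%, median 0.04), and ICAM1 was at -0.48. PPAR targets gave 1 higher and 4 lower of 11 (45.5%, median -0.06), with the mitochondrial genes SLC25A20 (-0.55) and ACADVL (-0.48) lower and CPT2 (0.29) higher. Clock genes bound by RORs and REV-ERBs gave 3 higher and 4 lower of 15 (46.7%, median -0.0083). ARNTL (BMAL1), a gene repressed by REV-ERBs, was at 0.46 and DBP at 0.57, while BHLHE40, a clock repressor, was at -0.77. Several genes, such as CRABP2 and DHRS3, stand in more than 1 list.

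**Figure D4:**
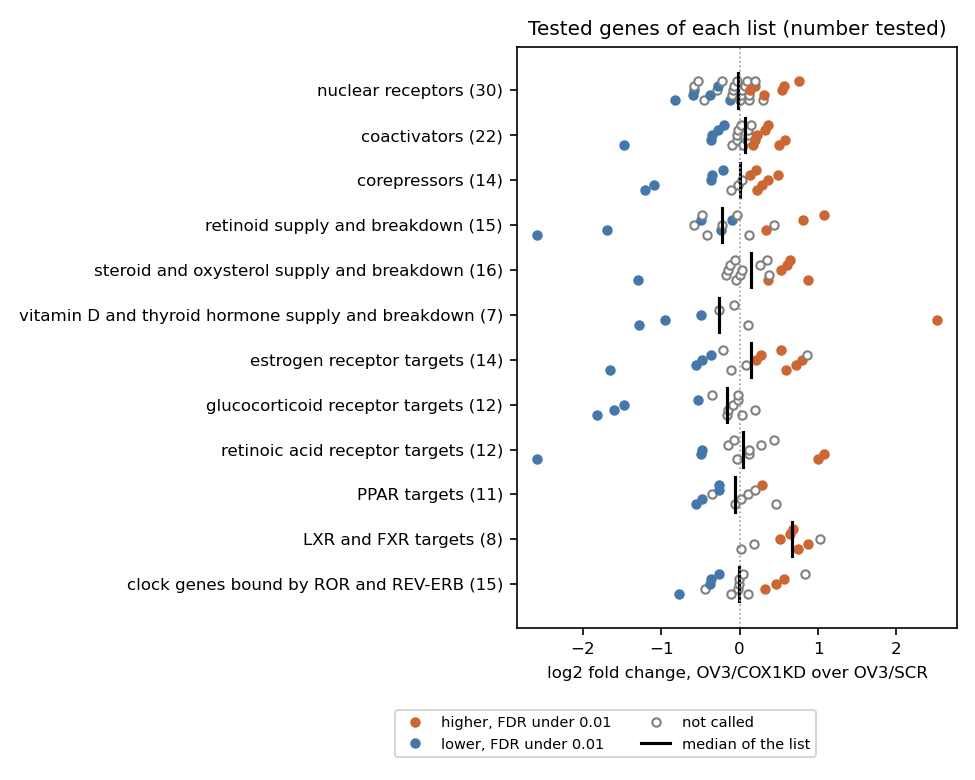
Log2 fold change (OV3/COX1KD over OV3/SCR) of every tested gene in the receptor family and in 11 lists, 1 point per gene, with the number tested in parentheses; orange and blue points passed an edgeR FDR of 0.01, open points did not, and black bars are list medians. Receptors stay between -0.82 and 0.75, whereas the ligand supply and target lists reach from -2.58 to 2.52, and the called LXR and FXR targets all lie to the right of 0. The value of -2.58 is CYP26B1, which passed the filter through the OV3/SCR libraries alone.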

How the data were processed

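Per the methods and labels, the authors mapped reads to hg19 (TopHat2), summed them over genes (HTSeq) and deposited raw counts with no normalization. Annotation release and strand setting are not given in the sources used here. Conditions and replicate numbers came from the labels, clone numbers from the study's legends. R 4.3.3 and edgeR 4.0.16 were used. Libraries were scaled by TMM, 17309 of 34811 genes passed filterByExpr, and conditions were compared by the quasi-likelihood F test, with Benjamini-Hochberg adjustment over the tested genes (FDR) and a threshold of 0.01. Levels per length used merged exons of GENCODE 44 lifted to GRCh37, which lacks a length for NR2E3. Promoter sequences came from RefSeq (GRCh38.p14), with entries for 40 of the 45 receptors. The letters AAAGGTCA (in 3 of these 40) and a direct repeat spaced by 4 bases (in 0 of them) were searched as well and are not shown. The scripts were tested on simulated data.

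Every tested receptor was given a value, called receptors in all 6 libraries, and of each list up to 3 called genes with the largest log2 fold changes at a mean log2 CPM of at least 1. The receptors and lists were chosen with earlier results of these data known. As alternatives, RLE size factors or total counts replaced TMM, the filter was dropped or set to a minimum of 10 counts in each library, DESeq2 1.42.0 replaced edgeR, the replicate number entered as a block, single libraries were left out, and neighbours were taken within 1 and 5 Mb.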

Additional observations from a re-analysis of the deposited data

How the results depend on the processing

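Of the log2 fold changes of tested receptors recomputed under the alternatives, 329 kept their side of the threshold, 19 lost a call, 11 gained one and no call turned its direction. The count of 6 receptors higher was 3 under total count scaling and 3 under DESeq2, and the count of 6 lower was 11 under total count scaling. Leaving out single libraries, 3 to 6 receptors were higher and 5 to 8 lower. The calls lost were those of NR3C1, RARG, PPARA and NR2F6, and RARA, NR1D2, NR1H2, NR2F1 and NR4A2 gained a call somewhere; the cause was not tested beyond the shift of -0.078 that total count scaling gives all genes. No receptor passed a fold change of 2.5 under any alternative. Same-numbered libraries deviated together with correlations across genes of -0.0046, 0.048 and 0.029, all under 0.1. OV3/SCR replicate 1 correlated more with OV3/COX1KD replicate 3 (0.022) than with its own number, while OV3/SCR replicates 2 and 3 correlated most with theirs. Correlations this small show no pairing but cannot exclude one. With the replicate number as a block, 6 receptors were higher and 6 lower. The log2 fold change of PTGS1 lay between -0.53 and -0.41. Scarce receptors are limited by depth, and 7 of the 13 untested ones had at most 3 counts in every library.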
